A study of Mus musculus with 96 samples.

Results

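The cytoplasmic ribosomal protein genes were followed through osteoblast cultures of 42 Collaborative Cross mouse strains. Members were all protein-coding genes named Rpl, Rps or Rplp followed by a number, without the Rps6k kinase genes: 91 of the 37945 genes in the table, with 347 transcripts. They comprise 57 genes named for the large subunit and 34 named for the small subunit. The rule also takes in 6 genes whose symbols end in ps and a number but which the annotation calls protein-coding, and Rps19bp1, which by its name is a binding partner of a ribosomal protein and not one itself. Of the 91, 86 passed a filter of 0.5 TPM in at least 2 libraries.

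The ribosome that works in the cytoplasm is built of ribosomal RNA and one copy of most ribosomal proteins, which are made in matched amounts. Many of the mRNAs begin with a run of C and T bases, the 5′ terminal oligopyrimidine tract, through which the growth-sensing TOR kinase and the La-related protein Larp1 regulate their translation. Bone-forming cells secrete large amounts of collagen and need many ribosomes. The mouse genome holds many processed copies of ribosomal protein genes, retrotransposed DNA copies of their mRNAs, so that a short read from one can match several places.

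Collaborative Cross strains are inbred lines whose chromosomes are mosaics of several founder genomes. Skull-cap cells of pups aged 3 to 5 days were grown for 48 h and differentiated for 10 days under ascorbic acid plus beta-glycerol phosphate, without any other treatment, and total RNA depleted of ribosomal RNA was sequenced in 96 libraries. One CC030 sample was sequenced 2 times and entered as the mean of its runs, which left 95 independent libraries. There was a single library for CC011, CC024 and CC035, and 2 for 31 strains, 3 for 2 strains and 4 for 6 strains. The labels give strain only, with no sex, litter or batch, and do not tell whether replicates are separate animals, so the error behind each p-value is that between deposited samples and may be technical. Levels are scaled TPM, a relative abundance corrected for transcript length, and depth is not recorded in that unit. The 12 osteoblast markers were all detected, with a summed level between 10714 and 31490 scaled TPM per library. The 11 macrophage markers found summed to between 14.9 and 1724, and none of them was at 0 in every library. In such bulk samples fewer cells of a type and less RNA per cell cannot be told apart.

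Most members were abundant. Rplp1, a protein of the acidic stalk that recruits elongation factors, had the highest median of the 42 strain means (2955 scaled TPM), followed by Rps12-ps3 (2904), Rps27rt (2055), Rpl10-ps3 (1764) and Rps24 (1613). The 3 of these with copy-like symbols were thus listed at the level of the classical genes. Rpl10-ps3 and Rpl10 (median 445) share all 642 coding bases, so no read within them can be assigned to either gene alone. At the other end, Rpl10l, Rpl36-ps4 and Rpl9-ps1 were listed at 0 in all 95 libraries. Rpl3l, the striated-muscle paralog of Rpl3, had a median of 0.0405. Rps27, a small-subunit protein, never exceeded 6.14e-47 TPM. Its coding sequence in the GENCODE M21 annotation is base for base that of Rps27rt, which ran from 1093 to 2758 between strain means. Rps27 is annotated on chromosome 3 and Rps27rt on chromosome 9. The 252 bases they share, without the stop codon, are shown because no read within them can be assigned to one of the genes alone.
Rps27 and Rps27rt: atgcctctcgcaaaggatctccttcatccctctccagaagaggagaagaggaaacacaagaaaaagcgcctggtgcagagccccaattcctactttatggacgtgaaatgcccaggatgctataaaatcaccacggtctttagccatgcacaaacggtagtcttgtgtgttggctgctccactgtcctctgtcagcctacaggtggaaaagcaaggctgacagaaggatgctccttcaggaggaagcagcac

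Near-identical annotated copies were common. A copy, here a transcript of another gene that shares at least 50% of the 31-base words of the coding sequence, existed for 71 of the 91 members, and for 21 members at least one copy had the whole coding sequence without a difference. In 14 members the copy with the highest median was above the member and above 10 scaled TPM. Among the 14 are Rpl36a-ps1 and Rpl9-ps6, whose higher copies were the classical genes Rpl36a (672) and Rpl9 (1171). Rpl35, a large-subunit protein, had a median of 17.5 and its copy Gm2000, annotated as protein-coding on chromosome 1, a median of 1019.5. Their coding sequences differ by 1 base, C117T, counted from the A of the start codon. Bases 87 to 147 of both are shown with that base in capitals.
Rpl35: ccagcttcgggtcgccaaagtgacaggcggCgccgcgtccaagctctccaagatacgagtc
Gm2000: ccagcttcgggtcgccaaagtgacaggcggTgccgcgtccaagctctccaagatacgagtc
Rpl5, which carries 5S ribosomal RNA and can bind Mdm2 together with Rpl11, had a median of 26.0 beside 189.6 for Gm15500, which holds the same 891 coding bases. Rpl41, the shortest member, had 382 beside 2617 for Gm10076, which the annotation calls a lincRNA. Rpl17 had 34.4 beside 1349 for Rpl17-ps8 on the X chromosome, and that copy ran from 1.66 to 1909.7 between strain means. Pearson's r between them over strain means was -0.04. Their sum ranged over log2 5.73 between strains, against log2 2.57 for Rpl17 alone.

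Nearly all members differed between strains, as did most genes. In the 39 strains with 2 or more libraries, 84 of the 86 members passed the strain test (limma moderated F on log2 scaled TPM plus 0.5, Benjamini-Hochberg adjusted p under 0.05 over 15760 genes). Of all genes tested, 81.5% passed, so the count does not set the members apart. The exceptions were Rpl36a-ps1 (adjusted p = 0.390) and Rpl9-ps6 (adjusted p = 0.207), with medians of 0.190 and 1.03. The share of variance that lay between strains (intraclass correlation) had a median of 0.737 over the members and 0.472 over all genes. It was 0.602 over the 499 genes with a median of at least 100 scaled TPM. From lowest to highest strain mean, the 71 members without separate levels spanned a median of 2.61-fold and all genes 2.03-fold.

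A group of members did not vary gradually but stood at 2 separate levels. A gene was counted where the largest gap between neighbouring strain means was at least 2-fold (1 on the log2 scale), with at least 2 strains on each side and every library on the side of its strain. This held for 15 members, of which 14 are described here: Rps12, Rps6, Rps25, Rps2, Rps13, Rpl34, Rpl27, Rpl12, Rpl19, Rpl15, Rpl10a, Rpl27a, Rpl26 and Rps12-ps3. Over all genes past the filter it held for 1.18% of 15760, and over the 499 genes with a median of at least 100 scaled TPM for 3.01%. Of those 499 genes 67 were members, and 5 of these 67 had separate levels, while the other 10 of the 15 had medians below that limit. All 15 kept their call under both other pseudocounts, without scaling and in the strains with 2 or more libraries only. Of these genes, 6 encode small-subunit proteins by name and 9 large-subunit proteins, and each had at least 1 annotated copy (median 4 copies). Of the 71 members without separate levels 55 also had a copy. The median over all 71, those without a copy included, was 2.

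**Figure D1:**
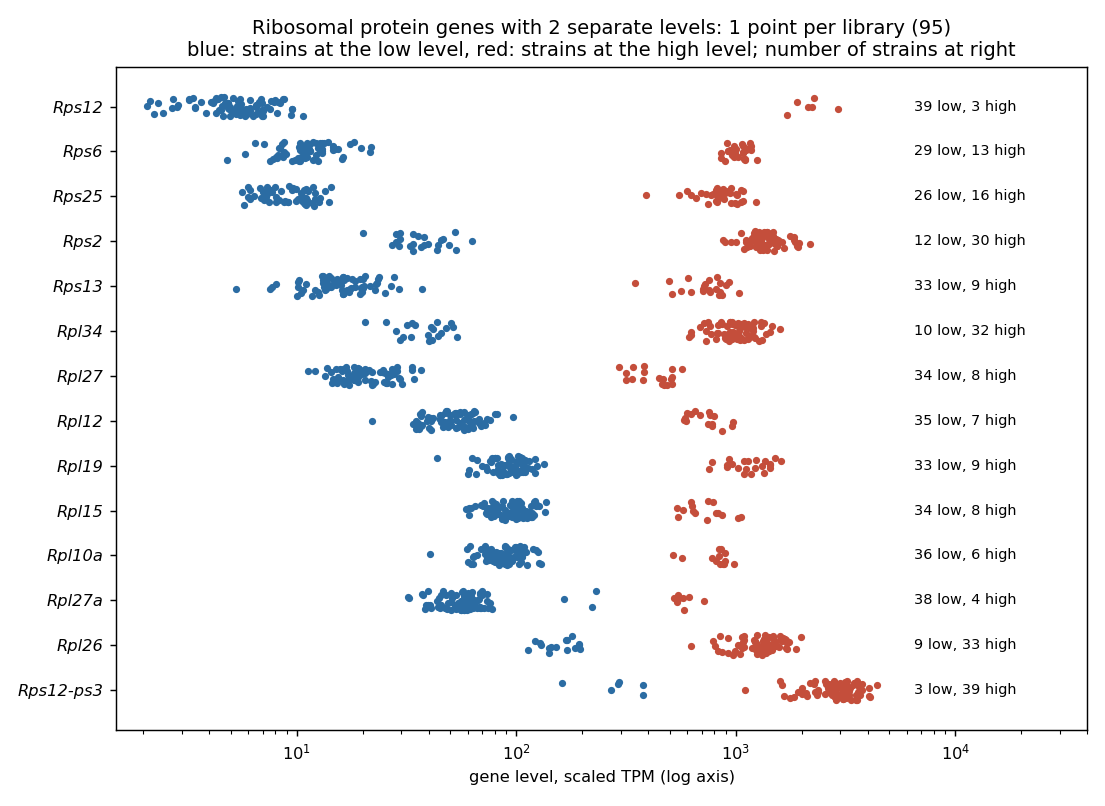
Gene level (scaled TPM, log axis) of 14 members with 2 separate levels, 1 point per library (95), blue for strains at the low level and red for strains at the high level; the number of strains of each kind stands at the right. Rps12 has the widest gap and Rps12-ps3 the narrowest, and no library lies on the other side from its strain, as the rule requires.

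Rps12, a protein of the small-subunit beak, had the widest gap, 200.7-fold (log2 7.65). It stood at 1712, 2175 and 2921 scaled TPM (lowest, median and highest) in the 6 libraries of CC009, CC028 and CC055. In the other 89 libraries it stood at 2.09, 5.32 and 10.7. Rps12-ps3 showed the opposite pattern in the same strains. It was at 161, 293 and 379.96 in the 6 libraries where Rps12 was high, and at 1097, 2944 and 4383 elsewhere. Pearson's r between the 2 genes over the 42 strain means was -0.79. Their sum had a median of 2445 in the 6 libraries and 2950 in the other 89, and ranged over log2 1.65 between strains, against log2 9.30 for Rps12 alone. In the annotation, the 411 coding bases of Rps12 on chromosome 10 are the 396 bases of Rps12-ps3 on chromosome 19 with 15 bases added. Bases 102 to 176 of Rps12 and the matching bases 102 to 161 of Rps12-ps3 are shown, with the 15 added bases in capitals, because they are all that tells these coding sequences apart.
Rps12: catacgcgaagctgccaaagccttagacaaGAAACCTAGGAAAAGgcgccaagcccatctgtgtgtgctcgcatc
Rps12-ps3: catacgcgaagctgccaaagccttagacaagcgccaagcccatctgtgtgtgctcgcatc
The added bases end at position 146, or equally at the next base.

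Rps6, the target of the S6 kinases, was high in 13 strains and low in 29 (gap 51.5-fold). Its 28 high libraries lay at 853, 1017 and 1244 (lowest, median and highest), and its 67 low libraries at 4.83, 11.2 and 21.7. A transcript that did not match the annotation, ENSMUST00000059249, ran against it, with r = -0.95 over the 42 strain means. That transcript was at 497.1, 1042 and 1622 where Rps6 was low and at 0.0864, 5.05 and 15.3 where it was high. For that transcript too the groups of libraries did not overlap, while for Rps6 the rule requires it. The sum of the pair ranged over log2 1.27 between strains, and Rps6 alone over log2 7.27.

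Rps25, a small-subunit protein that some viral mRNAs need to start translation, was high in 16 strains and low in 26. Its 38 high libraries ran from 389 to 1239.9 with a median of 844, and its 57 low libraries from 5.66 to 14.3 with a median of 9.22. The unmatched transcript that ran against it (r = -0.94) had medians of 1406 where Rps25 was low and 178 where it was high. So here the opposing transcript fell to a level well above 0, from 90.5 to 291.

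Rps2, a protein at the entry of the mRNA channel, was the other way round, high in 30 strains and low in 12. Its 71 high libraries ran from 874 to 2174 (median 1382) and its 24 low libraries from 20.01 to 62.8 (median 36.3). Gm6139 on chromosome 5 ran against it (r = -0.95). It was at 603 to 1725 in every library of the 12 low strains and at most 7.81 in the 71 others, with a median of 0.000725. Over 879 coding bases Rps2 (chromosome 17) and Gm6139 differ by 10 substitutions and no insertion. Bases 189 to 308 are shown because they hold 3 of these, T204C, C299A and C303T (in capitals, counted from the start codon, with the base of Rps2 first).
Rps2: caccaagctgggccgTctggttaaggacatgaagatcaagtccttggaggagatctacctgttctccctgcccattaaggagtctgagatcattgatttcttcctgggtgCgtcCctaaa
Gm6139: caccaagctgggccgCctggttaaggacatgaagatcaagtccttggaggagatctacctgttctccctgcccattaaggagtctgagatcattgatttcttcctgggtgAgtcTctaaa

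Rps13 was high in 9 strains, with 22 libraries at 348 to 1033 (median 757), and low in 33, with 73 libraries at 5.30 to 37.0 (median 15.8). The unmatched transcript that ran against it (r = -0.82) had a median of 829 in the low libraries and 1.55 in the high ones. CC040 and CC075 departed from this, since both transcripts were low there. In CC075 Rps13 was at 24.7 ± 3.98 (SD, n = 3) and the opposing transcript at 0.900 ± 0.815. In CC040 the values were 27.7 ± 13.2 and 5.71 ± 4.91 (n = 2). The sum of this pair alone still had 2 separate levels, and it ranged over log2 5.43.

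Among the large-subunit genes, Rpl34 was high in 32 strains, where its 74 libraries lay at 610.2 to 1592 (median 1009). It was low in 10 strains, where 21 libraries lay at 20.5 to 53.8 (median 40.0). Its opposing transcript (r = -0.92, unmatched) was at 518 to 1478 in the low libraries and at most at 12.5 in the high ones. Rpl26, a Diamond-Blackfan anaemia gene, was high in 33 strains (79 libraries, 628 to 1974, median 1346). It was low in 9 strains (16 libraries, 113 to 196, median 161). The opposing transcript of Rpl26 (r = -0.92) had medians of 1218 in the low libraries and 0.747 in the high ones. CC040 held both at once, with Rpl26 at 856 ± 93.3 and the opposing transcript at 734 ± 79.3 (n = 2).

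Rpl27 and Rpl19, both annotated on chromosome 11, were high in almost the same strains. Rpl27 was high in 8 strains and Rpl19 in 9, and the 8 were all among the 9: CC002, CC016, CC023, CC025, CC039, CC044, CC045 and CC071. CC038 was high for Rpl19 only. This is 100% of the Rpl27 strains and 88.9% of the Rpl19 strains, and 41 of 42 strains had the same state for both. Over the 105 pairs of members with separate levels no other pair agreed in as many strains. The third member on that chromosome, Rpl26, was high in 33 strains. It had the state of Rpl27 in 15 strains and that of Rpl19 in 16. Rpl27 stood at 293 to 569 (median 455) in its 18 high libraries and at 11.3 to 37.0 (median 19.2) in the 77 low ones. Rpl27-ps3, a processed pseudogene with the same 408 coding bases, ran against it (r = -0.92), with medians of 423 in the low libraries and 72.9 in the high ones. Rpl19, which forms a bridge between the subunits, stood at 755 to 1609.7 (median 1160.2) in its 22 high libraries and at 43.5 to 134.3 (median 93.5) in the 73 low ones. Its opposing transcript (r = -0.94, unmatched) had medians of 1239 in the low libraries and 1.10 in the high ones. Rpl27-ps3 ran against Rpl19 as well (r = -0.91), and the unmatched ENSMUST00000168283 against Rpl27 (r = -0.90). These pairings are therefore not particular to either gene.

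Rpl12, a protein at the base of the stalk, was high in 7 strains. It lay at 583 to 973 (median 752) in their 16 libraries and at 22.1 to 96.8 (median 50.6) in the other 79. Gm10275 on chromosome 10, which carries all 495 coding bases of Rpl12 unchanged, ran against it (r = -0.89). It was at a median of 1357 in the low libraries. The high strains were of more than one kind: Gm10275 had a median of 9.11 over them, but in CC006 it was at 559 ± 4.43 beside 612 ± 20.1 for Rpl12. CC007 was similar, at 523.2 ± 42.5 and 621 ± 47.4 (n = 2 each). The 16 libraries that were high for Rpl12 had a lower summed level than the others, with medians of 804 and 1402.

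Rpl15 showed a split of the same kind. It was high in 8 strains, at 542 to 1055 (median 742) in 15 libraries, and low in 34, at 58.9 to 136 (median 96.5) in 80 libraries. Its opposing transcript (r = -0.85, unmatched) had medians of 142 and 1018. In CC005, CC053 and CC057 that transcript stayed at 526 ± 106, 546 ± 15.9 and 494 ± 30.2 beside Rpl15 at 590 ± 68.8, 612 ± 53.9 and 588 ± 58.6 (n = 2 each). Rpl10a, a protein of the mobile L1 stalk, was high in 6 strains (13 libraries, 519 to 979, median 846). It was low in 36 strains (82 libraries, 40.4 to 130.1, median 89.1). The transcript against it (r = -0.87, unmatched) had medians of 6.45 and 751.

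For Rpl27a no transcript reached r = -0.8, the limit set for naming one. Rpl27a was high in CC006, CC040, CC044 and CC075, at 523.3 to 720.1 (median 551) in 9 libraries. In the other 86 libraries it was at 32.2 to 231.6, with a median of 57.5. The upper end came from 3 libraries of CC015, replicates 1 to 3 at 164, 221 and 231.6, while replicate 4 was at 44.04 and no library of another low strain was above 77.9. In the same 3 libraries the opposing transcript of Rps13 was at 267, 343 and 368.3, and at 618 in replicate 4. The lowest correlation was that with Gm7536, at -0.58. Gm7536 has the same 444 coding bases, with medians of 886 where Rpl27a was high and 1487 where it was low.

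In all, 11 of the 15 members had a transcript past the limit, of which 8 did not match the annotation and 3 did (Gm6139, Rpl27-ps3 and Gm10275). In 9 of the 11, that transcript was higher in every low library than in any high one, and the exceptions were Rps13 and Rpl15. The gap between levels closed below 2-fold on summing in 14 of the 15, apart from Rps13. These include pairs short of the limit, and Rps12 and Rps12-ps3 share the same sum. Each transcript was chosen for its lowest r, and adding one far above the member narrows the gap even if it is unchanged. The sums are therefore descriptions and no test. Correlations over strain means are descriptions, and the points of a pair share their libraries and their scaling.

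**Figure D2:**
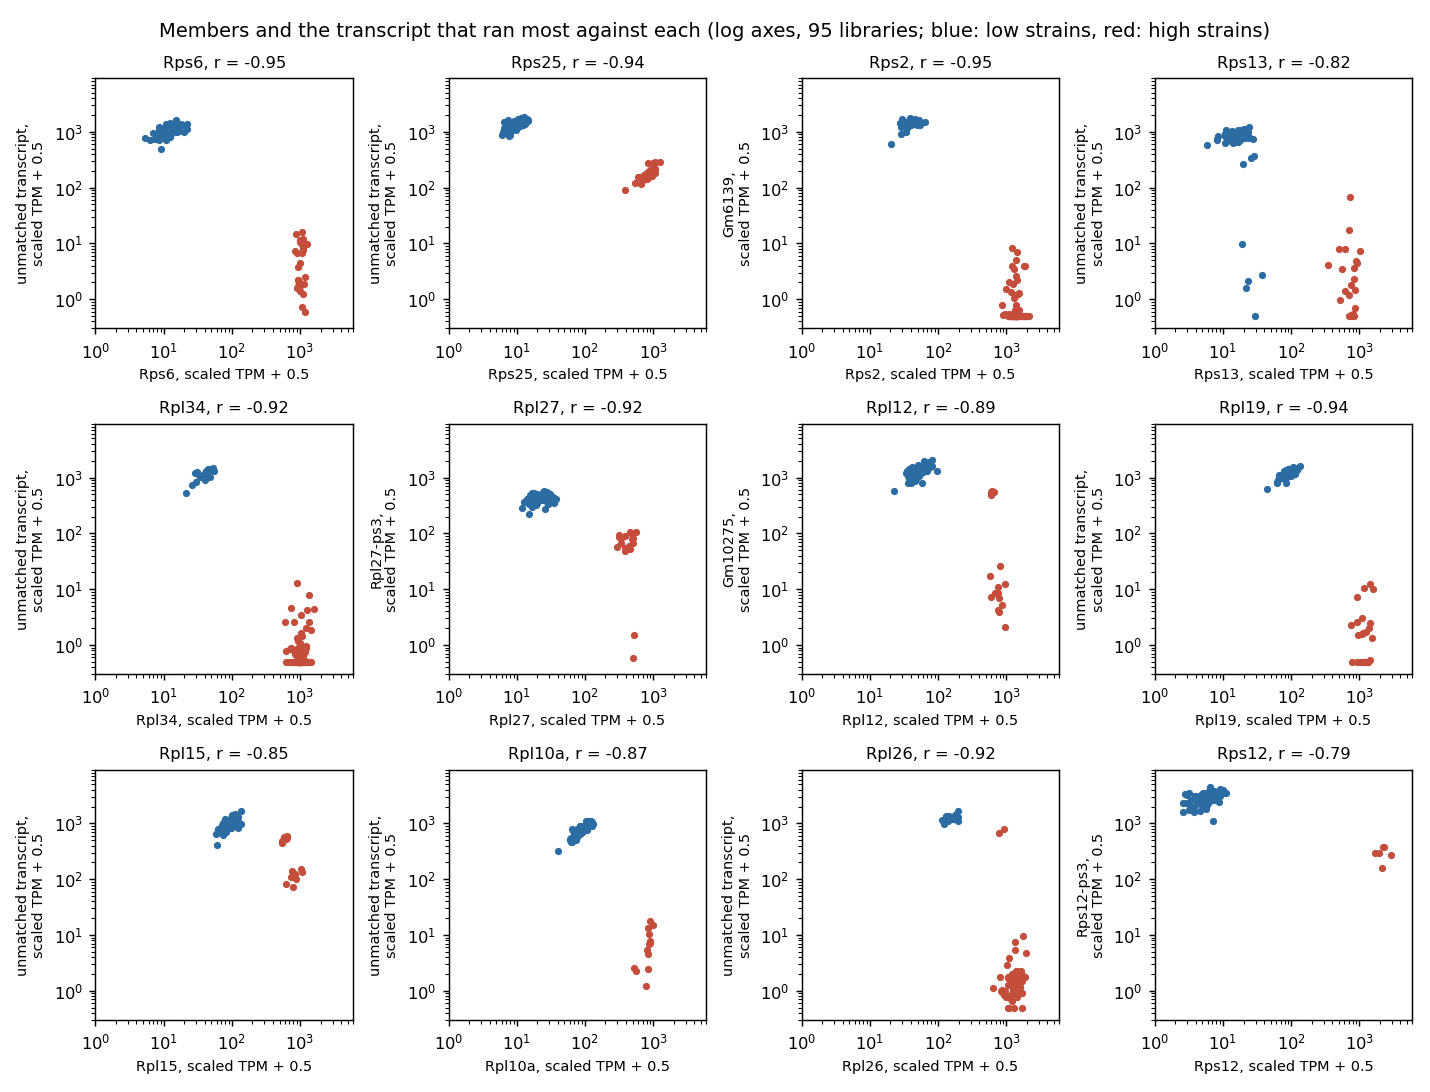
Level of 12 members with separate levels (horizontal, scaled TPM + 0.5, log axis) and of the transcript that ran most against each (vertical, same unit), 1 point per library, blue and red for strains at the low and high level of the member, with r over the 42 strain means. Libraries fall into a group at upper left and one at lower right; Rps13 has strains at lower left, and Rpl12, Rpl15 and Rpl26 have strains at upper right.

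States were combined differently from strain to strain. The number of the 15 members at the low level ran from 5 in CC039 to 13 in CC043, with a median of 10 over the 42 strains. Both runs of the CC030 sample that was sequenced 2 times were on the same side for all 15. Apart from Rpl19 and Rpl27, members on 1 chromosome did not stand out. Rps13 (high in 9 strains) and Rpl27a (high in 4) on chromosome 7 agreed in 31 strains. Rps2 (high in 30) and Rpl10a (high in 6) on chromosome 17 agreed in 14. Such counts depend on how many strains were high for each member.

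**Figure D3:**
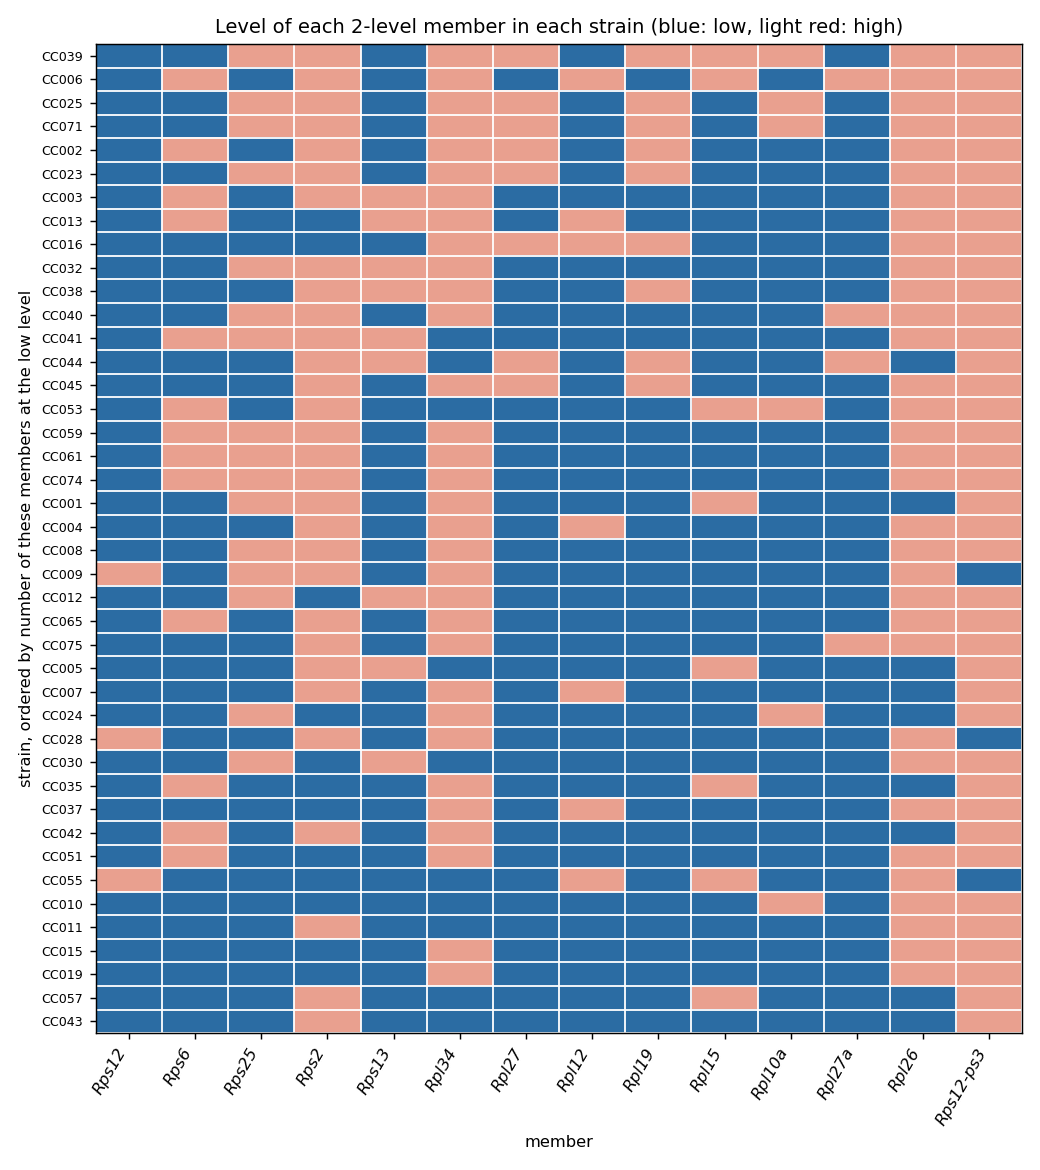
State of 14 members with separate levels (columns, by decreasing gap) in the 42 strains (rows, by the number of these members at the low level): blue for low and light red for high. The columns of Rpl27 and Rpl19 differ in CC038 only, and those of Rps12 and Rps12-ps3 are opposite in every strain.

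Several members came close to the rule. Rpl21 had a gap of log2 1.57 but libraries on both sides of it. Its 8 low strains included CC038, at 14.995 ± 1.57 (n = 4), while the highest strain, CC040, was at 577 ± 17.8 (n = 2). Rpl35a, another Diamond-Blackfan anaemia gene, had a gap of log2 0.85, and its strain means ran from 135.5 to 1430.4. An unmatched transcript ran against it (r = -0.91), and summed with it the range fell from log2 3.42 to log2 1.36. Rps15 had a gap of log2 0.65, with CC008, CC030 and CC038 below all other strains.

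Transcripts of members were read in the same way, over the 323 that passed the filter. Of these, 25 had separate levels, in 21 genes, beside 0.935% of all 39887 transcripts tested. The 6 genes that showed it in a transcript but not as a whole were Rpl10, Rpl21, Rpl28, Rpl29, Rpl35a and Rps28. The call of Rpl28 was lost with a pseudocount of 1, with a gap of 2 on the log2 scale, and without CC025 replicate 1, CC028 replicate 2 or CC065 replicate 2. That of Rpl35a was lost with the same gap, and without CC007 replicate 2, CC030 replicate 2 or CC071 replicate 1. For Rpl29, 2 of its own transcripts ran against each other, though short of the limit (r = -0.59). ENSMUST00000150576 was at 118 to 587 (median 311) in the libraries of 37 strains and at 1.69 to 6.43 in those of CC002, CC005, CC043, CC045 and CC061. In those 5 strains another Rpl29 transcript, ENSMUST00000098994, was at 507 to 691 (median 559.6). Over the 37 strains it had a median of 0.442 but reached 216. ENSMUST00000059802, also of Rpl29, was at 51.1 to 109 in 7 other strains and at most at 5.61 in the rest. Rpl10, a late-joining large-subunit protein on the X chromosome, had 1 transcript at 74.9 to 215 in 36 strains and at 1.53 to 9.33 in the other 6, while the gene as a whole ranged only from 268 to 549.98 between strain means. A transcript of Rps28 was at 147 to 479 in 13 strains and at 0.423 to 6.69 in 29, and an unmatched transcript ran against it (r = -0.91). Of the unmatched transcripts past the filter, 42 of 988 had separate levels (4.25%).

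The other 71 members varied over a narrower range, and 69 of them passed the strain test. The widest ranges were those of Rpl21 (37.4-fold), Rpl35a (10.7-fold), Rpl31 (10.1-fold), Rps16 (7.77-fold) and Rpl17 (5.91-fold). Rpl31, also a Diamond-Blackfan anaemia gene, was at 410.1 ± 2.26 in CC061 and 41.0 ± 12.2 in CC030 (n = 2 each). The mean of Rps16 was 94.6 ± 65.7 (n = 2) in CC071, its lowest strain, and 647 ± 73.2 (n = 3) in CC075, its highest. The narrowest ranges were those of Rpl7l1 (1.61-fold), Rpl7a (1.96-fold), Rps19bp1 (2.01-fold), Rps27l (2.02-fold) and Rpl36al (2.07-fold). Rpl7l1 passed at an adjusted p of 0.00198, and not without scaling (adjusted p = 0.144) or when only the 20 strains whose title numbers lie far apart were used (0.0941). Rps19bp1 also did not pass in those strains (0.743).

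**Figure D4:**
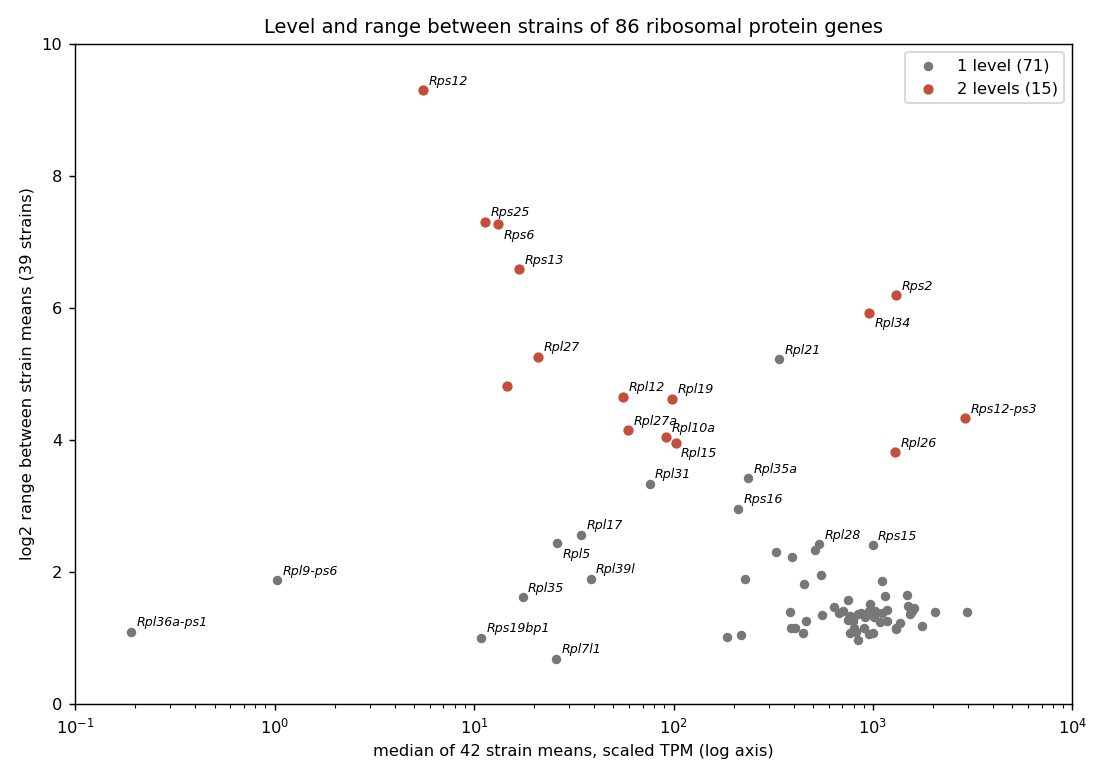
Median of the 42 strain means (scaled TPM, log axis) and log2 range between strain means (39 strains) of the 86 members past the filter, red for the 15 with separate levels and grey for the 71 without. Every red point lies above all grey ones except that of Rpl21.

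The acidic stalk proteins Rplp0, Rplp1 and Rplp2 moved within similar limits. Rplp0 was at 2072 ± 197.4 (n = 4) in CC025 and 829 ± 303.8 (n = 2) in CC030, and Rplp2 at 962 ± 51.8 and 443 ± 137 in the same strains. Rplp1 was at 3749 ± 16.0 in CC053 and 1489 ± 580.0 in CC030 (n = 2 each). Rpl11, the partner of Rpl5, was at 695 ± 58.1 (n = 2) in CC065 and 312 ± 28.4 (n = 4) in CC038, and Rpl5 ran from 19.5 ± 0.630 in CC071 up to 109 ± 18.1 in CC012 (2 libraries each). Of the 9 paralogs listed, 7 passed the filter and all 7 the strain test, beside 81.5% of all genes. Rpl22l1 was at 392 ± 28.3 in CC010 and 109 ± 40.7 in CC030 (n = 2 each), and Rps27l, which p53 induces, at 275 ± 55.5 (n = 2) in CC005 and 136 ± 22.4 (n = 4) in CC038. The 19 Diamond-Blackfan anaemia genes, mutated in a failure of red cell production, had 18 past the filter, all 18 past the test and 3 with separate levels (Rpl15, Rpl26 and Rpl27). Separate levels were found in 15 of the 86 members past the filter, so these counts do not set the list apart.

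Of the members with a known part in the skeleton, Rpl38 varied most. Rpl38 is needed in the mouse embryo to pattern the axial skeleton. It stood at 1339 ± 136 (n = 4) in CC025 and at 267 ± 47.2 (n = 2) in CC030, a 5.03-fold range (adjusted p = 2.80e-26), and its intraclass correlation was 0.939. Rpl13, mutated in a human skeletal dysplasia, ranged 2.49-fold, Rpl24 2.39-fold and Rps19 2.55-fold, close to the median of 2.61-fold over the 71.

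Members without separate levels tended to move together. Over the 69 of them with a median of at least 10 scaled TPM, the median Pearson's r between 2 members across the 42 strain means was 0.70 (2346 pairs, quartiles 0.38 and 0.87), and 2305 pairs were above 0. These points share libraries and scaling, and r was not computed between other genes, so it does not set the members apart. Rpl13 (mean r with the others 0.76), Rps24 (0.76) and Rps10 (0.76) were closest to the rest. Rpl35a (0.05), Rpl29 (0.08), Rpl17 (0.10) and Rpl21 (0.13) were farthest from it.

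The summed level differed between strains as well. All 91 members together held a median of 19.2% of protein-coding TPM over the 42 strains, from 11.2% ± 2.86 (SD, n = 2) in CC030 to 24.0% ± 1.19 (n = 4) in CC025. The SD within strains was 1.28 percentage points, and the intraclass correlation of the share was 0.801. Protein-coding genes, the base of this share, held from 28.4% (CC005) to 38.0% (CC023) of TPM in the strain means. Next lowest were CC038 at 14.3% ± 1.42 and CC015 at 14.9% ± 1.64 (n = 4 each), and next highest CC039 at 23.3% ± 0.0200 (n = 2). The libraries of CC025 (22.8% to 25.6%) did not overlap with those of CC038 (12.9% to 15.9%) or CC015 (12.6% to 16.6%). Without the 15 members with separate levels the median was 16.7%.

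**Figure D5:**
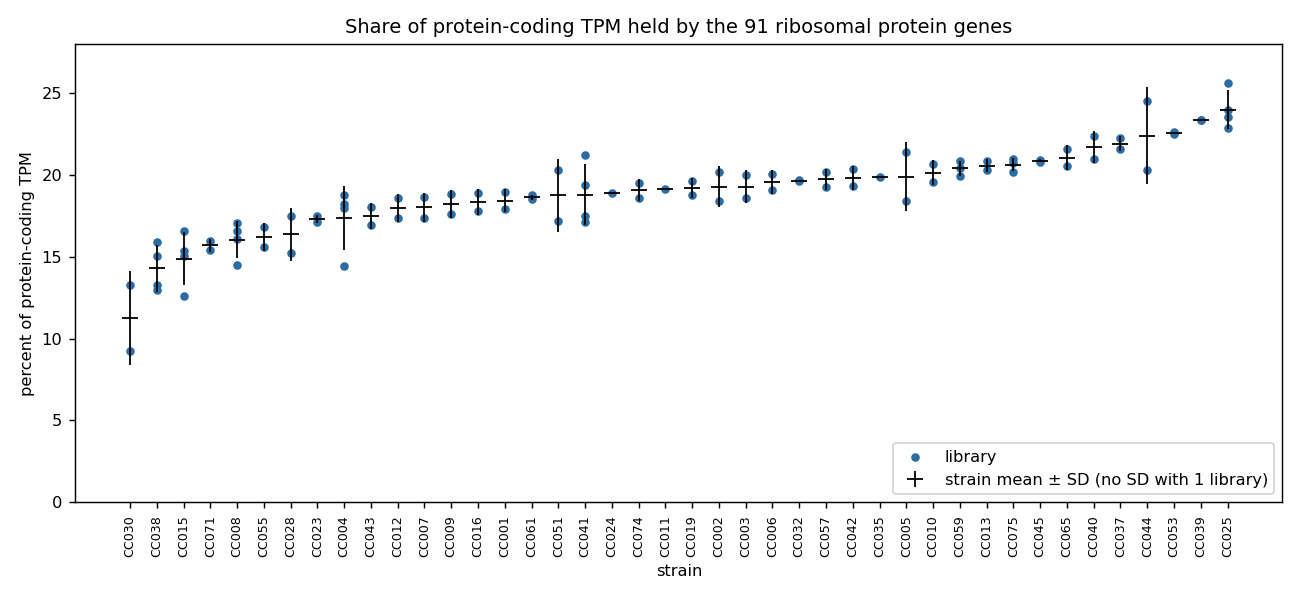
Share of protein-coding TPM held by the 91 members (percent) in each strain, ordered by its mean: blue points are libraries and black marks the strain mean ± SD. The strain means rise from 11.2% in CC030 to 24.0% in CC025.

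Gene by gene, CC030 was lower than the mean of the other strains in 61 of the 71 members without separate levels (limma, adjusted p under 0.05 over all strains and genes), beside 13.3% of all genes. The median fitted fold over the 71 was 0.550. Fitted folds come from means of log2 values and differ from the ratio of the arithmetic means printed beside them. Rps15 was at 251 ± 89.4 in CC030 and 963 over the other strains (fitted fold 0.262, adjusted p = 1.95e-18), Rpl37 at 88.3 ± 22.4 and 305 (0.303) and Rpl38 at 267 ± 47.2 and 689 (0.426). Rpl17 alone was higher, at 56.4 ± 11.3 and 41.6 (fitted fold 1.50, adjusted p = 0.00155). The CC030 libraries differed, with shares of 9.23% and 13.3%, and the count was 62 without replicate 2 and 50 without replicate 1. With 1 library left, the spread in that test comes from the other strains, and CC030 is assumed to vary as they do. Macrophage markers summed to 1511 ± 301 scaled TPM in CC030, the highest strain mean, and osteoblast markers to 13134 ± 1963; their part in the result was not tested.

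CC038 was lower in 62 of the 71 (14.2% of all genes; median fitted fold 0.721) and CC015 in 51 (10.5% of all genes; median fitted fold 0.782). In CC038 Rpl21 was at 14.995 ± 1.57 and 309.2 over the other strains, Rps15 at 315 ± 44.1 and 962, and Rpl13a at 303 ± 50.5 and 598. Rpl35a went the other way, at 737 ± 105 and 549 (fitted fold 1.91). In CC015 Rpl37 was at 109 ± 14.9 and 305. Macrophage markers summed to 356 ± 185 in CC038 and 293 ± 199.9 in CC015, and cycling-cell markers to 158 ± 92.3 and 166 ± 88.3, with a median library of 79.99; their part was not tested. CC071 was lower in 48 members (9.65% of all genes), and in 17 on deposited TPM without scaling. Macrophage markers summed to 785 ± 83.0 and osteoblast markers to 12277 ± 1480 there, with median libraries of 176 and 19503; their part was not tested.

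CC025 was higher than the other strains in 57 of the 71 (10.4% of all genes; median fitted fold 1.29). Rpl38 was at 1339 ± 136 in CC025 and 661 over the other strains (fitted fold 2.24). Rps7 was at 1038 ± 88.5 and 501 (fitted fold 2.19) and Rpl28 at 808 ± 61.8 and 446.7 (fitted fold 2.07). These members followed the rest less closely than most, with mean r of 0.47, 0.50 and 0.18. Gm6472, a copy of Rps7, ran from 28.3 to 759 between strain means (r = -0.67 with Rps7). Rps15 and Rpl35a were lower, at 566 ± 44.03 and 955 (fitted fold 0.623) and at 249 ± 31.5 and 561 (fitted fold 0.627). Macrophage markers summed to 88.3 ± 35.3 and osteoblast markers to 18318 ± 4144 there. CC037 was higher in 42 (6.41%), CC044 in 29 (6.63%) and CC039 in 26 (6.26%), but these counts turned on the scaling: on deposited TPM they were 3, 53 and 10. On deposited TPM the median over all genes lay at log2 -0.22 in CC037, -0.16 in CC039, -0.12 in CC025, 0.10 in CC044, 0.15 in CC030 and 0.16 in CC071, and scaling brought it to -0.02 in CC037 and closer to 0 in the others. In CC037 and CC039 the medians over the members were log2 0.10 and 0.11 on deposited TPM, above those of all genes on either scale.

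Other genes of the translation machinery were read beside the members. Over all genes tested, 81.5% passed the strain test, and the counts that follow are read beside that share. Of 20 translation factors and other genes known for a 5′ terminal oligopyrimidine tract, 19 passed (median intraclass correlation 0.680), among them Eef1a1, the elongation factor that delivers tRNA, at 8949 ± 849 in CC044 and 3690.2 ± 890 in CC030 (n = 2 each). Of 26 ribosome biogenesis genes, 20 passed (0.420), and of 78 mitochondrial ribosomal protein genes 74 (0.507), with median ranges of log2 0.87 and log2 0.70 beside log2 1.38 over the 71 members. Of 16 p53 target genes 15 passed, and of 9 genes of the TOR pathway, Larp1 included, 6. These values stand side by side, and the differences between lists were not tested.

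Promoters were searched for the tract that many of these mRNAs begin with. RefSeq promoter entries (GRCm38.p6) matched 62 of the 86 members by symbol. A run was at least 8 bases made of C and T only, read in the sense of the mRNA. It had to begin within 10 bases of the annotated start. Such a run was present in 20 of 62 (32.3%), and in 4 of the 13 members with separate levels. Over all tested genes with an entry it was present in 11.2% (1231 of 10958), and over mitochondrial ribosomal protein genes in 5 of 69 (7.25%). Of the translation factors and other genes known for such a tract, 4 of the 13 with an entry had the run (30.8%). A gene without the run in this search may therefore still have a tract. Shown are 30 bases on each side of the start, with the run in capitals, for Rps6 and Rps12, which have separate levels, and for Rpl13a, a member without separate levels.
Rps6, chr4:86857338-86857397, minus strand: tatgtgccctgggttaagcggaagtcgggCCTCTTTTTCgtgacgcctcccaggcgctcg
Rps12, chr10:23787180-23787239, minus strand: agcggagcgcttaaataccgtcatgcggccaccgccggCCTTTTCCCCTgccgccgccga
Rpl13a, chr7:45128716-45128775, minus strand: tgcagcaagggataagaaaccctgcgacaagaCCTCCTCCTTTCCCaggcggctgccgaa
The run is a description of these letters at the annotated start, which need not be the start used in these cells.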

How the data were processed

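The values are TPM per transcript, as computed and deposited by the authors, since each of the 96 columns sums to 1000000. Bowtie and mm9 are named in the submitters' processing notes. How reads were shared out between transcripts is not stated there. Of 94545 transcripts, 3320 had no entry in GENCODE M21 (GRCm38), and the values of the other 91225 were added up by gene (37945 genes). Depth is not recorded in TPM. Levels were divided by a trimmed mean of log ratios per library (30% trimmed by ratio and 5% by level, factors 0.771 to 1.27). Genes and transcripts with 0.5 TPM in at least 2 libraries were used, on log2(scaled TPM + 0.5), which understates changes of low genes. The strain test was limma 3.58.1 (R 4.3.3), moderated F with a variance trend, residual df 53, adjusted over all genes. A contrast of each strain against the equally weighted others was adjusted over all strains and genes. Both the strain test and the rule for separate levels were tested on simulated data.

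Genes were named by rule: members with separate levels, the 5 widest and 5 narrowest others, the 5 highest and lowest levels, and short ribosomal lists. An opposing transcript was the one with the lowest r over 42 strain means, among those ranging at least 0.25 times as far as the member, and was named at r of -0.8 or below. Other genes named with values (among them Rpl37, Rpl28, Rps7, Rpl13a, Rps15 and Rpl29) were chosen after their values were seen. A few genes are not reported here by name. Members and lists were chosen with earlier results of these data known. Coding sequences and copies come from GENCODE M21, and copies share at least 50% of 31-base words. Coordinates of promoters are those of RefSeq on GRCm38.p6, not of the authors' build. Alternatives were pseudocounts of 0.1 and 1, no filter, no scaling, other gap rules, strains with title numbers 20 or more apart, and leaving out each library.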

Additional observations from a re-analysis of the deposited data

Results flagged for a closer look

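In the 6 strains with 4 libraries, the summed share and 14 members with separate levels were searched for a library far from the other 3, and 7 of 90 groups of 4 had one. Chance flags about 1 in 20 groups. CC004 replicate 2 was below the other CC004 libraries for Rps2 (874 scaled TPM, others 1234 to 1300), Rpl34 (720.3, others 934 to 946) and Rpl26 (926, others 1275 to 1340). The summed share of that library was 14.4%, and between 18.003% and 18.7% in the others. In CC015, Rps6 was low in replicate 4 (7.59, others 10.3 to 10.8). In CC025, Rps12 was low in replicate 2 (2.71, others 5.30 to 5.86), and Rps25 and Rpl10a were high in replicate 3 (1240 and 979, others 1057 to 1077 and 875 to 889). None of these libraries lay on the other side of the gap from its strain, but the rule for separate levels requires this of every library.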

How the results depend on the processing

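The number of members past the strain test stayed between 82 and 85 (84 to 85 on leaving out any 1 library), and the median intraclass correlation of members between 0.690 and 0.737 (0.726 to 0.766). Members with separate levels numbered 12 to 21 under the other rules and 15 to 16 on leaving out any 1 library. They numbered 1 when each was summed with the transcript chosen for its lowest r. Their transcripts numbered 19 to 36 (24 to 26). A gap of 2 left out Rpl26, Rpl27a and Rps12-ps3, and at least 4 strains on each side left out Rps12 and Rps12-ps3. Splitting the strain means into 2 groups by 2-means added Rpl21, Rpl28, Rpl29, Rpl35a, Rpl37 and Rpl38. The share of protein-coding TPM was 16.7% without members with separate levels, against 19.2%, and 19.1% to 19.2% on leaving out any 1 library. On deposited TPM, an alternative chosen after seeing the data, the members higher in CC037, CC044 and CC039 numbered 3, 53 and 10 and those lower in CC071 17. The cause was not tested. Leaving out either CC030 library gave 50 to 62 members lower there, with the spread taken from the other strains. Of 250 values of 50 named members under alternatives, 247 kept the call and 3 lost it (Rpl7l1 in 2 settings and Rps19bp1 in 1). No paired analysis was possible because replicate numbers follow accession order only. Precision is limited by the 2 libraries of most strains. How reads were assigned among near-identical copies was not tested.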
